A study of Mus musculus with 4 samples.

Results

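The transcripts described here are those of the mitochondrial respiratory chain, counted by RNA-seq in mouse cells labelled as CD4+ T cells after 3 days of Tfh polarization, with or without a T-cell-specific deletion of MEK1 and MEK2. Members were chosen by gene symbol: the mitochondrially encoded mt-Nd, mt-Co, mt-Cytb and mt-Atp genes, and the nuclear genes whose symbols start with Ndufa, Ndufb, Ndufc, Ndufs, Ndufv, Uqcr, Cox4, Cox5, Cox6, Cox7, Cox8 or Atp5, with Sdha, Sdhb, Sdhc and Sdhd. Ndufaf genes, which encode assembly factors, and symbols ending in -ps were left out. The rule found 103 of the 54752 genes listed, 90 of them nuclear and 13 mitochondrial, and no measured value entered it. Of these, 95 had enough counts to be tested, which were 82 nuclear genes and all 13 mitochondrial ones.

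The respiratory chain moves electrons from NADH and succinate to oxygen and uses the energy to pump protons across the inner mitochondrial membrane. Complexes I, III and IV pump, complex II feeds in electrons from succinate, and complex V (ATP synthase) lets the protons flow back to make ATP. Complexes I, III, IV and V are built from subunits of both genomes, so that the mitochondrial DNA supplies a few hydrophobic core subunits and the nucleus supplies the rest, whereas complex II is entirely nuclear. T cells that leave quiescence enlarge their mitochondria and raise both respiration and glycolysis.

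The groups were WT and Mek1/2-tKO, with 2 libraries each. Mek1/2-tKO mice, on a C57BL/6 background, carried floxed alleles of Map2k1 (MEK1) and Map2k2 (MEK2) and a Cre driven by Cd4, so that recombination starts in the thymus in cells that express Cd4. The sources used here describe WT littermates of this line but do not list the alleles of the WT donors of these libraries. Ages and the number of animals behind a library were not given in the sources used here. Naïve CD4+ T cells of the spleen from both genotypes received the same anti-CD3 and anti-CD28 stimulation under Tfh-skewing conditions, and viable cells were sorted again on day 3. No label says that the 2 libraries of a genotype came from separate animals or cultures, so the p-values measure the spread between these libraries, which may be technical.

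The libraries held 16330802 to 18931090 counts, and 3 counts in a library correspond to 0.158 to 0.184 CPM (counts scaled to a common library total), which covers counting error only. Map2k1 fell in Mek1/2-tKO libraries (log2 fold change -0.86), while Map2k2 did not pass the test (log2 fold change 0.15, adjusted p = 0.126 in edgeR's quasi-likelihood test). The labelled cell type was checked against its markers. Cd4 itself was at 297 and 289 CPM in WT but at 18.8 and 25.1 CPM in Mek1/2-tKO libraries. Each of the 12 B lineage markers had risen in the Mek1/2-tKO libraries, with a summed level of 1267 to 1288 CPM in WT and 6928 to 6977 CPM in Mek1/2-tKO. All 8 NK markers (148 to 149 against 852 to 929 CPM), all 5 tested gamma-delta T markers (4.77 to 6.98 against 166 to 185 CPM), all 6 tested myeloid markers (116 to 120 against 452 to 521 CPM), both CD8 markers (59.3 to 67.4 against 214 to 238 CPM) and 3 of 4 erythroid markers (3.79 to 4.00 against 21.1 to 23.4 CPM) were higher as well, and of 9 CD4 alpha-beta T markers 5 were lower and 1, Cd3g, was higher (summed level 1987 to 2005 against 1221 to 1374 CPM). None of these markers was at 0 in all 4 libraries. The part of these differences in the results on the respiratory chain was not tested, and in bulk RNA fewer cells of a type and less RNA per cell cannot be told apart.

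Respiratory chain transcripts were mostly higher in Mek1/2-tKO than in WT libraries, by modest folds. A transcript is said here to have risen or fallen when its adjusted p was under 0.05 in edgeR's quasi-likelihood test over all 14330 genes tested. By that criterion 57 of the 82 tested nuclear members rose (69.5%) and 5 fell (6.10%), beside 27.8% of all tested genes that rose and 27.2% that fell. With a fold change of at least 1.5 also required, 26 nuclear members (31.7%) were higher and 0 lower, beside 19.3% and 16.4% of all tested genes. DESeq2 called 23 nuclear members higher at that fold. Gene copies (Ndufb4c, Ndufs6b and Cox6c2) made up 3 of the 57 and 2 of the 26. Of the mitochondrial members, 12 of 13 rose, 7 of them at least 1.5-fold, and 0 fell. At an unadjusted p under 0.05 in edgeR, 1 nuclear member (Cox7a1) was lower at least 1.5-fold and 0 mitochondrial members were lower, and DESeq2 called 0 nuclear members lower at that fold and 4 without it, and 0 mitochondrial members. The median log2 fold change was 0.48 over the tested nuclear members and 0.64 over the mitochondrial ones, beside 0.015 over all tested genes. In CPM, 64 nuclear members were higher in both Mek1/2-tKO libraries than in both WT libraries and 8 were lower in both, beside 39.5% and 38.8% of all tested genes, and 10 overlapped.

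The size of the rise differed between the Mek1/2-tKO libraries. Replicate 1 lay above replicate 2 in 83 of the 95 tested members, whereas it lay above in 49.8% of all tested genes. WT replicate 1 lay above WT replicate 2 in 45 of the 95. Without Mek1/2-tKO replicate 1, the nuclear members that were higher at least 1.5-fold numbered 14 instead of 26, the median of the nuclear members was 0.31 and that of the mitochondrial members 0.38, while 49 nuclear members still rose. Scaled by library size alone, 17 nuclear members were higher at least 1.5-fold and the median of the nuclear members was 0.39, against -0.069 for all tested genes. All 57 nuclear members that rose kept a positive log2 fold change in every alternative test, scaling and filter, and with each library left out, but 12 lost the call in at least one of these, all 12 of them with a library left out and 6 also in another test, scaling or filter.

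**Figure D1:**
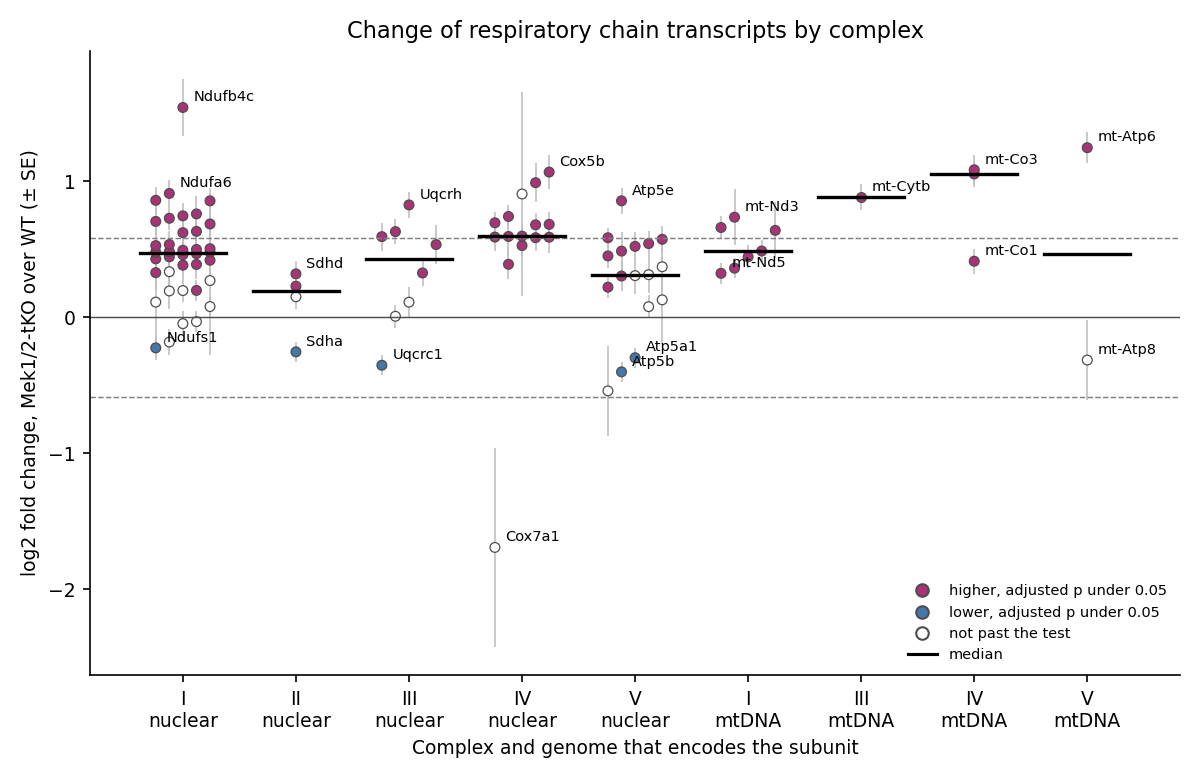
Log2 fold change (Mek1/2-tKO over WT) of the 95 tested members, by complex and by the genome that encodes the subunit; points are genes, thin lines the standard error, black bars medians and dashed lines a 1.5-fold change. The 5 blue points that fell are all nuclear, and the 15 tested nuclear members of complex IV have the highest nuclear median, 0.60.

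Complex I takes electrons from NADH. Its nuclear genes encode 7 core subunits of the matrix arm, which hold the flavin and the iron-sulfur clusters, and many small accessory subunits. Of the 38 tested, 28 rose, 11 of them at least 1.5-fold, 1 fell and 9 did neither, with a median log2 fold change of 0.47. The 28 include the gene copies Ndufb4c and Ndufs6b, and the 11 include Ndufb4c. Ndufs6b (0.48), named after its value was seen, lost its call in DESeq2 and with scaling by library size alone. Ndufa6 (ENSMUSG00000022450.6, chromosome 15, 82350140 to 82354322), a small accessory subunit, was at 59.0 and 68.4 CPM in WT and at 126 and 114 CPM in Mek1/2-tKO libraries. The genotypes did not overlap, and the log2 fold change was 0.91 (SE 0.10, adjusted p = 5.20e-06 in edgeR's quasi-likelihood test). It remained between 0.80 and 1.02 with each library left out. Ndufb11, Ndufa2, Ndufa1 and Ndufa7, also accessory subunits, had log2 fold changes of 0.86, 0.86, 0.76 and 0.75. Among all accessory subunits, 21 of 29 rose and 0 fell (0 also at an unadjusted p in edgeR and in DESeq2), and the 8 others included Ndufv3 (-0.18), Ndufa9 (-0.047) and Ndufa10 (-0.032).

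Core subunits of the matrix arm moved in both directions. Ndufs3 (0.63), Ndufs8 (0.50), Ndufs7 (0.42), Ndufv2 (0.38) and Ndufv1 (0.20) were among those that rose. Ndufs1 (ENSMUSG00000025968.16, chromosome 1, 63143596 to 63176833), the largest subunit of the arm and the carrier of several iron-sulfur clusters, fell. Its level was 104 and 109 CPM in WT and 94.0 and 88.4 CPM in Mek1/2-tKO libraries, with a log2 fold change of -0.23 (SE 0.088, adjusted p = 0.0433 in edgeR's quasi-likelihood test). The groups did not overlap but lay close together. This call was lost without WT replicate 1, without WT replicate 2 and without Mek1/2-tKO replicate 2 (adjusted p = 0.161, 0.328 and 0.0526 in edgeR's quasi-likelihood test), in DESeq2 (adjusted p = 0.0787) and when at least 10 counts were required in every library (adjusted p = 0.0595 in edgeR). Ndufv1 was near the threshold too (adjusted p = 0.0498 in edgeR's quasi-likelihood test) and lost its call in 7 of 12 alternatives. The complex I genes given in this paragraph, other than Ndufs1, and Ndufv3, Ndufa9 and Ndufa10, were chosen after their values were seen.

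Some complex I genes could not be measured well. Ndufb4c, a gene copy of Ndufb4, had the largest log2 fold change of all members, 1.54 (SE 0.21, adjusted p = 3.14e-05 in edgeR's quasi-likelihood test), with 4.31 and 5.19 CPM in WT and 14.3 and 13.4 CPM in Mek1/2-tKO libraries. All of its stretches of 100 bases also occur in another annotated gene, and Ndufb4 itself was at only 1.49 and 1.87 CPM in WT and 0.840 and 3.14 CPM in Mek1/2-tKO. The value of the copy is therefore uncertain, since the authors counted uniquely mapped reads. Ndufb6 and Ndufa13 share 39% and 30% of their exon bases with another gene, and no strand setting of the counting is named. Ndufa11b had too few counts to be tested, as had 7 members of complexes IV and V, one of them a further identifier of Atp5o. Ndufb6 and Ndufa13 were named after their values were seen.

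Complex II, succinate dehydrogenase, works in both the citric acid cycle and the respiratory chain, and its 4 subunits diverged. Sdha (ENSMUSG00000021577.14, chromosome 13, 74322254 to 74350280), the flavoprotein that oxidizes succinate, was at 315 and 335 CPM in WT and at 268 and 276 CPM in Mek1/2-tKO libraries. Both Mek1/2-tKO libraries lay below both WT libraries, with a log2 fold change of -0.25 (SE 0.074, adjusted p = 0.00982 in edgeR's quasi-likelihood test), and the call was lost without either WT library (adjusted p = 0.0790 and 0.241). Sdhb, the iron-sulfur subunit, rose from 197 and 187 CPM to 231 and 219 CPM (log2 fold change 0.23, adjusted p = 0.0200 in edgeR's quasi-likelihood test; 0.140 with scaling by library size alone, and 0.147 and 0.298 without WT replicate 1 and 2). Of the membrane anchors, Sdhd rose from 188 and 179 to 250.5 and 208 CPM (0.32, adjusted p = 0.00896 in the same test, 0.111 without WT replicate 2), and Sdhc, at 112 and 103 CPM in WT and 127 and 112 CPM in Mek1/2-tKO, did not pass (0.15, adjusted p = 0.185). Neither anchor overlapped between the genotypes, although Mek1/2-tKO replicate 2 of Sdhc lay next to WT replicate 1.

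Complex III passes electrons from ubiquinol to cytochrome c. Of its 8 nuclear members, 5 rose, 3 of them at least 1.5-fold, and 1 fell. Uqcrh, the hinge protein, was at 147 and 141 CPM in WT and at 283 and 226 CPM in Mek1/2-tKO libraries (log2 fold change 0.83, SE 0.098, adjusted p = 9.70e-06 in edgeR's quasi-likelihood test). The Mek1/2-tKO libraries lay above WT by different amounts, replicate 1 the higher. Uqcr10, which had the highest level per kilobase of exon among the nuclear genes of the complex (317 CPM per kilobase in WT), rose with a log2 fold change of 0.63, and Uqcr11 with one of 0.59. Not every small subunit rose. Uqcrq (246 coding bases), named after its value was seen, was at 270 and 264 CPM in WT and 331 and 246 CPM in Mek1/2-tKO. It overlapped (0.11, adjusted p = 0.410 in edgeR's quasi-likelihood test). Of the structural core subunits, Uqcrc1 (ENSMUSG00000025651.14, chromosome 9, 108936633 to 108949623) fell from 368 and 358 to 289 and 279.7 CPM, with a log2 fold change of -0.35 (SE 0.072, adjusted p = 9.37e-04 in edgeR's quasi-likelihood test). No library of one genotype reached the other, and the call held with each library left out (largest adjusted p = 0.0459, without WT replicate 1). Uqcrc2, the other core subunit, was at 232 and 230.5 CPM in WT and 251 and 214 CPM in Mek1/2-tKO, and overlapped (0.0072, adjusted p = 0.950). The Rieske protein gene Uqcrfs1 rose (0.33), but lost the call without either WT library (adjusted p = 0.0733 and 0.0553 in edgeR's quasi-likelihood test), and Uqcr11, Uqcrc2 and Uqcrfs1 were chosen after their values were seen.

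Complex IV, cytochrome c oxidase, had the highest share of members that rose among the nuclear parts of the complexes (86.7%). Its tested nuclear genes also had short coding sequences (median 262.5 bases). Of all tested genes under 400 coding bases, antigen receptor segments left out, 67.3% rose. Their median log2 fold change was 0.61, beside 0.60 for complex IV. At least 1.5-fold, 47.6% of them were higher, beside 73.3% in complex IV. The part of length in this share was not tested. Of the 15 tested nuclear members of complex IV, which include Ndufa4, a subunit first assigned to complex I, 13 rose, 11 of them at least 1.5-fold, and 0 fell (0 also in DESeq2, and 1, Cox7a1, at an unadjusted p under 0.05 in edgeR). In DESeq2 8 were higher at least 1.5-fold. Of the 11, Cox6c, Cox7a2, Cox7b, Cox6c2 and Cox6a1 lay just past that fold (1.50, 1.50, 1.51, 1.51 and 1.51). Cox6c2, counted among the 13 and the 11, is a gene copy that shares 34.8% of its 100-base stretches with Cox6c. Cox6c and Cox6c2 were named after their values were seen. Cox5b (ENSMUSG00000061518.11, chromosome 1, 36691449 to 36693681), a peripheral subunit on the matrix side, was at 18.3 and 20.1 CPM in WT and at 38.6 and 41.7 CPM in Mek1/2-tKO libraries. The lowest Mek1/2-tKO library was far above the highest WT library, with a log2 fold change of 1.07 (SE 0.13, adjusted p = 9.17e-06 in edgeR's quasi-likelihood test) and a range of 1.00 to 1.14 with each library left out. Cox7c, another small subunit, had a log2 fold change of 0.99 (SE 0.14, adjusted p = 6.35e-05 in the same test), from 13.1 and 15.5 CPM in WT to 28.2 and 28.5 CPM in Mek1/2-tKO. Cox5b and Cox7c were counted at 12.1 and 12.6 CPM per kilobase of exon in WT, against 259 for Cox4i1 and 616 for Cox8a, the highest nuclear level in the complex. Of their 100-base stretches, 3.33% (Cox5b) and 16.2% (Cox7c) occur in another annotated gene.

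Where a complex IV subunit has a ubiquitous and a tissue-restricted form, the ubiquitous form had the higher level in every library. Cox4i1 was at 385 and 417 CPM in WT and 616 and 541 CPM in Mek1/2-tKO libraries and rose (log2 fold change 0.53), while Cox4i2, the form associated with low oxygen, had 2 and 0 counts in WT and 4 and 0 in Mek1/2-tKO. Cox6a1 (0.60), Cox6b1 (0.68), Cox7a2 (0.59), Cox7b (0.59), Cox8a (0.68) and Ndufa4 (0.74) rose, as did Cox7a2l (0.69). The muscle forms were near the floor: Cox6a2 had 8 and 26 counts in WT and 8 and 8 in Mek1/2-tKO, and Cox7a1 was at 0.667 and 1.24 CPM in WT and 0.258 and 0.320 CPM in Mek1/2-tKO. Cox7a1 did not pass the quasi-likelihood test (log2 fold change -1.69, SE 0.73, adjusted p = 0.0648 in edgeR), although its groups did not overlap and a likelihood-ratio test called it (adjusted p = 0.0199 in edgeR). Cox6b2, a testis form, overlapped between the genotypes (0.91, SE 0.75, adjusted p = 0.328 in edgeR's quasi-likelihood test) and was at -0.26 without Mek1/2-tKO replicate 2. Cox7b2, Cox8b, Cox8c and Ndufa4l2 were not tested for lack of counts; Ndufa4l2, the hypoxia-associated relative of Ndufa4, had 1 and 0 counts in WT and 0 and 0 in Mek1/2-tKO.

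Complex V held genes that rose beside genes that fell. Atp5b (ENSMUSG00000025393.12, chromosome 10, 128083273 to 128090391) and Atp5a1 (ENSMUSG00000025428.15, chromosome 18, 77773729 to 77782869) encode the beta and alpha subunits, which alternate in the head of the enzyme and form its catalytic sites, and both fell. Atp5b was at 2439 and 2528 CPM in WT and at 1907 and 1853 CPM in Mek1/2-tKO libraries, with a log2 fold change of -0.40 (SE 0.074, adjusted p = 4.46e-04 in edgeR's quasi-likelihood test). Atp5a1 was at 1641 and 1657 CPM in WT and 1348 and 1335 CPM in Mek1/2-tKO (-0.30, SE 0.072, adjusted p = 0.00332 in the same test). Neither gene overlapped between the genotypes, and the replicates of a genotype lay close together. Atp5b kept its call with each library left out, but Atp5a1 lost it without WT replicate 1 and without WT replicate 2 (adjusted p = 0.0753 and 0.0941), at log2 fold changes of -0.31 and -0.29.

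In the same head, the small central subunits rose. Atp5e (epsilon) was at 167 and 192 CPM in WT and at 351 and 299 CPM in Mek1/2-tKO libraries, a log2 fold change of 0.86 (SE 0.094, adjusted p = 5.02e-06 in edgeR's quasi-likelihood test), and was the only member of complex V past 1.5-fold. Atp5d (delta) rose by 0.58 on the log2 scale, and Atp5c1 (gamma) did not pass (0.078). Of the 17 tested nuclear members of the complex, 9 rose, 2 fell and 6 did neither. The 9 include 3 of the 4 tested peripheral stalk subunits (Atp5f1 0.45, Atp5j 0.52 and Atp5h 0.49) and 2 of the 3 genes for the c subunit of the proton-driven ring (Atp5g1 0.30 and Atp5g3 0.22). Atp5g3 made up 0.948 and 0.956 of the summed level per kilobase of the c-ring genes in the WT libraries and 0.952 and 0.949 in the Mek1/2-tKO libraries, which overlapped. Atp5l, at 4.36 and 3.63 CPM in WT and 3.23 and 2.29 CPM in Mek1/2-tKO, did not pass (-0.54, adjusted p = 0.187), and Atp5o shares 47.9% of its exon bases with another gene. The calls of Atp5g1 and Atp5g3 were lost without either WT library and with scaling by library size alone, that of Atp5g1 also in DESeq2, without a filter and without Mek1/2-tKO replicate 1 (adjusted p up to 0.217 for Atp5g1 and 0.388 for Atp5g3), and that of Atp5h without WT replicate 1 and without Mek1/2-tKO replicate 1 (adjusted p = 0.0678 and 0.0599 in edgeR's quasi-likelihood test). All complex V genes given here other than Atp5a1, Atp5b and Atp5e were chosen after their values were seen.

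Ratios of subunits within a library, taken per kilobase of exon, did not depend on the scaling of the libraries. Atp5a1 over Atp5b was 0.909 and 0.886 in WT and 0.955 and 0.974 in Mek1/2-tKO libraries, so that the catalytic pair stayed near equal levels in all 4. Atp5b over Atp5d, in contrast, was 2.86 and 2.87 in WT and 1.52 and 1.38 in Mek1/2-tKO. Uqcrc1 over Uqcrh went from 0.750 and 0.761 to 0.305 and 0.370. Each of these ratios was without overlap between the genotypes, as were Ndufs1 over Ndufa6 (0.392 and 0.355 against 0.166 and 0.173) and Sdha over Sdhb (0.869 and 0.969 against 0.631 and 0.683). Cox6a1 over Cox4i1, a pair from complex IV in which both rose, overlapped (1.61 and 1.52 against 1.70 and 1.58). The pairs were chosen after their values were seen, so the ratios are given without a test.

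**Figure D2:**
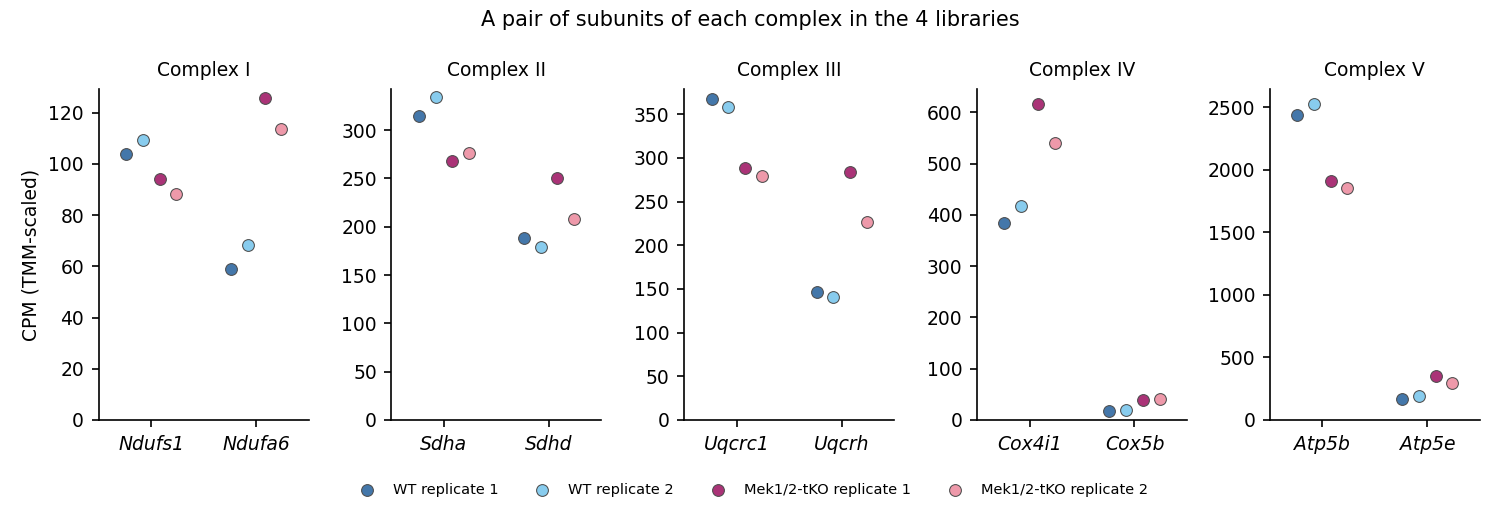
CPM (TMM-scaled, linear axes from 0) of a pair of nuclear subunits of each complex in the 4 libraries, each point 1 library. In complexes I, II, III and V the first gene of the pair was lower and the other higher in both Mek1/2-tKO libraries, whereas in complex IV both Cox4i1 and Cox5b were higher.

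Sums over genes weigh the most abundant members most. The tested and untested nuclear members together took up 13252 and 13458 CPM in WT and 16419.5 and 14564 CPM in Mek1/2-tKO libraries, a ratio of 1.16. Atp5a1 and Atp5b together went from 4080.4 and 4184 CPM in WT to 3255 and 3189 CPM in Mek1/2-tKO. Without this pair the ratio was 1.33. Complex IV had the highest ratio (1969 and 2019.9 against 3316 and 2805 CPM, 1.53), and the ratio was 1.34 for complex I, 1.17 for complex III and 1.05 for complex II. The sum of complex V overlapped between the genotypes (ratio 0.974), and without Atp5a1 and Atp5b it had a ratio of 1.35. For each sum without overlap the exact two-sided permutation test gave p = 0.333, the smallest that 2 libraries against 2 allow. Scaled by library size alone, complex II overlapped and complex V was lower in both Mek1/2-tKO libraries.

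**Figure D3:**
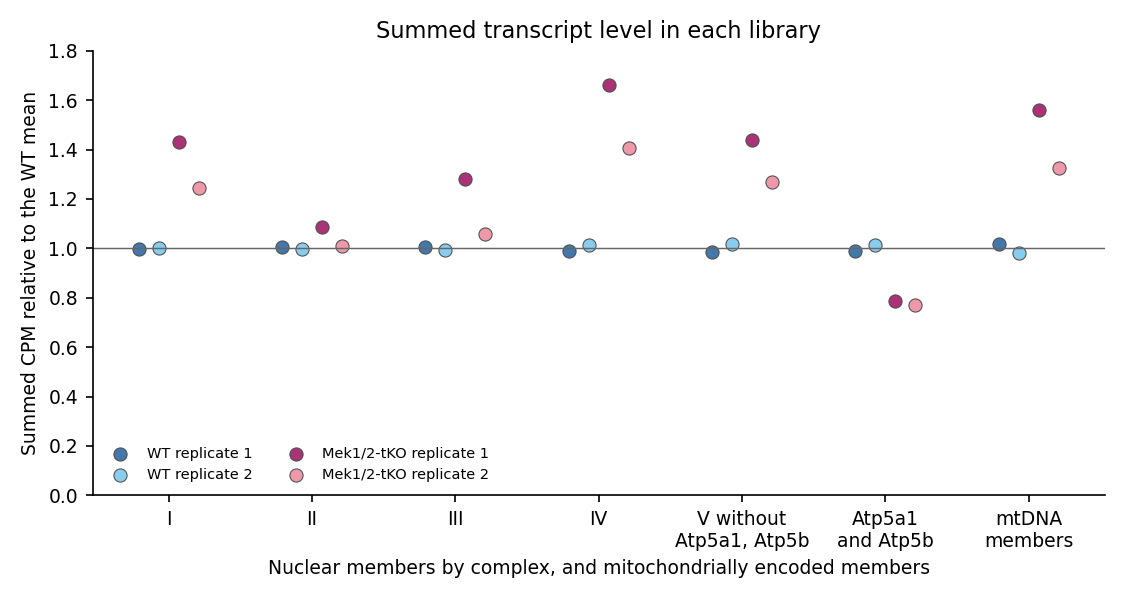
Summed CPM of the members of each complex and of the mitochondrially encoded members, divided by the WT mean, with 1 point per library. The sum of Atp5a1 and Atp5b is the only group below 1 in both Mek1/2-tKO libraries, and complex II in Mek1/2-tKO replicate 2 lies next to the WT libraries.

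The direction of a nuclear member went with the length of its coding sequence. Of the 36 tested nuclear members with under 400 coding bases, 29 rose and 0 fell in edgeR (median log2 fold change 0.59). From 400 to under 800 bases 22 of 29 rose and 0 fell (median 0.42; 0 fell in DESeq2 in either class, and Cox7a1 alone at an unadjusted p in edgeR), and from 800 bases upward 3 of 14 rose and 5 fell (median -0.040). All 5 genes that fell, Atp5b, Uqcrc1, Atp5a1, Sdha and Ndufs1, are in the longest class, with coding lengths of 1587, 1440, 1659, 1992 and 2181 bases. Over the 79 nuclear members with a coding length, the log2 fold change correlated with log10 coding length at a Pearson's r of -0.49 and a Spearman's rho of -0.58, as a description across genes that share libraries.

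The same relation held across the transcriptome. Of the tested genes other than antigen receptor segments, 67.3% of 594 with under 400 coding bases rose (median 0.61), 48.7% of 2083 from 400 to under 800 bases rose (median 0.33), and 18.4% of 8893 from 800 bases upward rose while 38.2% fell (median -0.19). Spearman's rho over these 11570 genes was -0.44. By adjusted p alone, nuclear members thus had a higher share of rises than genes of the same length class below 800 bases (80.6% and 75.9%). In the longest class the shares were close to the rest (21.4% rose and 35.7% fell). With a fold change of at least 1.5 also required, 50% of members under 400 bases were higher, beside 47.6% of genes. From 400 to under 800 bases the shares were 20.7% and 28.3%, and from 800 bases upward 0% and 12.6%. After the trend of log2 fold change on exon length over all tested genes was taken out, the median of the nuclear members went from 0.48 to 0.18 and that of the mitochondrial members from 0.64 to 0.15, with 63 of 82 and 11 of 13 above 0. With a trend on GC content taken out as well, the medians were 0.20 and -0.030. The part of transcript length in the rise was not tested beyond these values.

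**Figure D4:**
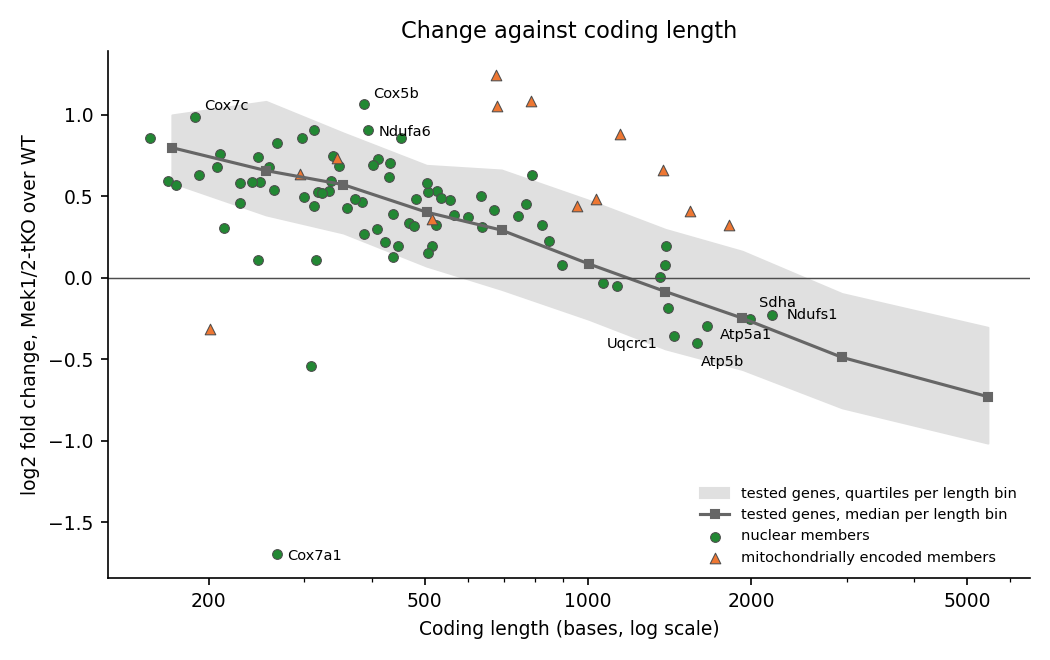
Log2 fold change (Mek1/2-tKO over WT) against coding length (bases, log axis) of the nuclear (circles) and mitochondrially encoded (triangles) members, with the median and the quartiles of tested genes without antigen receptor segments in bins of coding length. Most nuclear members under 800 bases lie above 0, the 5 members that fell lie between 1440 and 2181 bases, and the median of tested genes falls from 0.80 in the shortest bin to -0.73 in the longest.

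The mitochondrial DNA encodes 7 subunits of complex I, 1 of complex III, 3 of complex IV and 2 of complex V, which are transcribed together as long precursors and then cut apart. Summed, these transcripts took 14849 and 14317 CPM in WT and 22741 and 19325 CPM in Mek1/2-tKO libraries, a ratio of 1.44 without overlap. The Mek1/2-tKO libraries differed from each other more than the WT libraries did. Relative to the nuclear members, the mitochondrial sum was 1.12 and 1.06 in WT and 1.38 and 1.33 in Mek1/2-tKO, and with Atp5a1 and Atp5b left out of the nuclear sum it was 1.62 and 1.54 against 1.73 and 1.70 (exact permutation p = 0.333 for each).

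The most abundant of all members was mt-Co1 (ENSMUSG00000064351.1, chromosome M, 5328 to 6872), the catalytic subunit of complex IV, at 6873 and 6663 CPM in WT and 9766 and 8246 CPM in Mek1/2-tKO libraries (log2 fold change 0.41, SE 0.091, adjusted p = 0.00174 in edgeR's quasi-likelihood test). Its level was 4381 CPM per kilobase of exon in WT, and the next were mt-Nd1 (2579) and mt-Cytb (2055). The gene mt-Cytb, for the cytochrome b of complex III, was at 2416 and 2285 CPM in WT and 4746 and 3926 CPM in Mek1/2-tKO, a log2 fold change of 0.88 (SE 0.093, adjusted p = 3.34e-06 in the same test). It was the only gene with under 50% of its 100-base stretches found elsewhere that rose at least 1.5-fold. The complex I genes mt-Nd1 (0.44), mt-Nd2 (0.49), mt-Nd5 (0.32) and mt-Nd6 (0.36), which encode its proton-pumping membrane arm, rose too. The open reading frames of the complex V genes mt-Atp8 and mt-Atp6 overlap, and how reads in the overlap were assigned is not given in the sources used here. The gene mt-Atp8 did not pass the test and overlapped (6.83 and 6.07 against 6.78 and 3.67 CPM, log2 fold change -0.31, adjusted p = 0.385), shared 21.1% of its bases with another gene, and went to -0.81 without Mek1/2-tKO replicate 1 and to 0.065 without Mek1/2-tKO replicate 2.

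Nearly whole or in large part, the sequence of 6 mitochondrial genes occurs again in the nuclear genome. The shares of 100-base stretches found in another annotated gene were 99.9% for mt-Co3, 99.5% for mt-Co2, 99.5% for mt-Atp6, 98.5% for mt-Nd4l, 97.6% for mt-Nd3 and 60.8% for mt-Nd4. All 6 rose (median log2 fold change 0.89), with 1.25 for mt-Atp6, 1.08 for mt-Co3, 1.05 for mt-Co2, 0.74 for mt-Nd3, 0.66 for mt-Nd4 and 0.64 for mt-Nd4l. The 7 genes below 50% had a median of 0.41, and 6 of them rose. Calls were lost for mt-Nd3 without Mek1/2-tKO replicate 1, for mt-Nd4l without WT replicate 1 and in DESeq2, and for mt-Nd5 without WT replicate 2 (adjusted p = 0.122, 0.155, 0.0725 and 0.101). The folds of both kinds interleaved through mt-Cytb alone (0.88), which had 0% of its stretches found elsewhere and lay above mt-Nd3, mt-Nd4 and mt-Nd4l. Every other gene below 50% had a lower log2 fold change than all 6. Levels in WT ran from 25.99 (mt-Nd4l) to 464 (mt-Nd4) CPM per kilobase for the 6 genes and from 31.6 (mt-Atp8) to 4381 (mt-Co1) for the 7 others. The overlap rested on mt-Nd4 and the short mt-Atp8. Without this pair the more shared genes ended at 147 (mt-Co2) and the others started at 332 (mt-Nd6). The pair was left out because it overlapped, after the values were seen. This gap therefore says nothing on a link between sharing and level. Reads that mapped to more than one place were not counted, and their part in these values was not tested. The copies lie in a cluster on chromosome 1 (24611535 to 24616197, GRCm38). Counts assigned to Gm28661 of this cluster came to 105 and 105 CPM in WT and 242 and 196 CPM in Mek1/2-tKO libraries (1.06). It holds 99.5% of the 100-base stretches of mt-Co2, and whether these counts were its own was not tested. Over the genes with under 10% shared stretches the median was 0.40. The grouping by sharing was made after the values were seen.

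**Figure D5:**
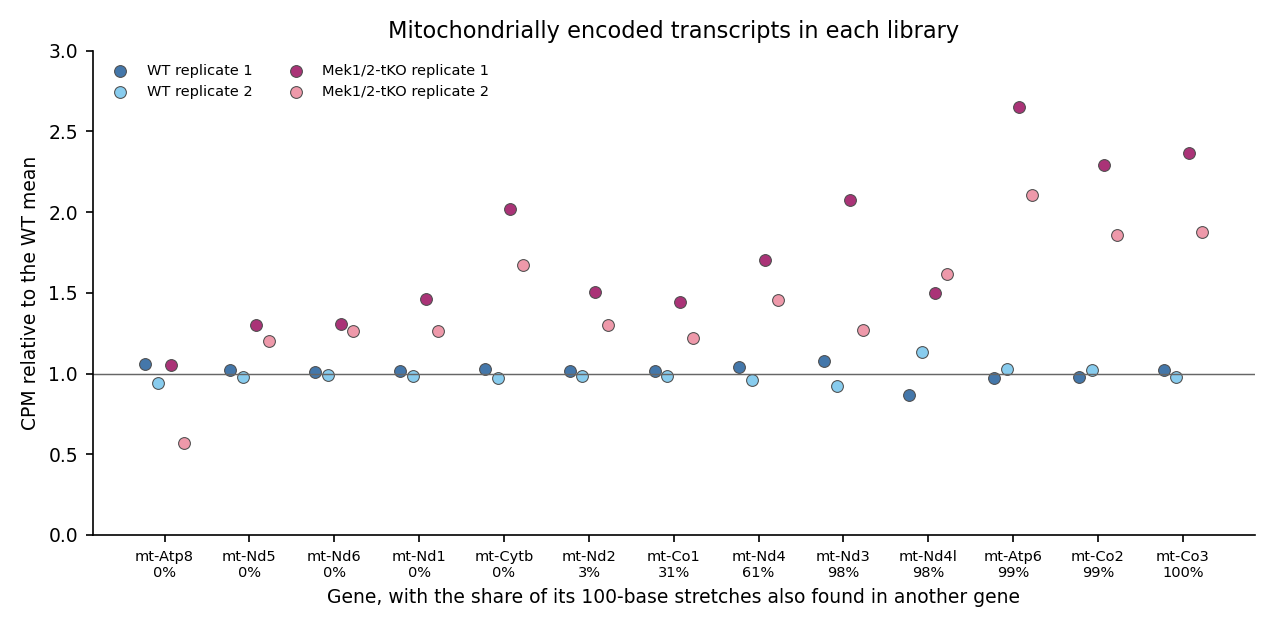
CPM of each mitochondrially encoded member divided by its WT mean, 1 point per library, with the genes ordered by the share of their 100-base stretches also found in another annotated gene (percent under each name). All but mt-Atp8 are above both WT libraries in both Mek1/2-tKO libraries, and mt-Cytb, with 0% shared, as well as mt-Atp6, mt-Co2 and mt-Co3, with over 99%, are above 1.5 in both.

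Genes that serve the chain without being subunits were counted in the same way. Of 49 tested assembly factors, 19 rose (38.8%) and 7 fell (14.3%), beside 27.8% and 27.2% of all tested genes, with a median log2 fold change of 0.30. At least 1.5-fold, 11 were higher (22.4%) and 1 lower (2.04%), beside 19.3% and 16.4%. The median coding length of the assembly factors was 648 bases. Of tested genes from 400 to under 800 bases, antigen receptor segments left out, 48.7% rose and 10.8% fell (median 0.33), and 28.3% were higher at least 1.5-fold. The assembly factors thus rose in a smaller share than genes of that length class. The largest rises of assembly factors were those of Ndufaf3 (1.25), which acts in complex I assembly, Uqcc3 (1.14) for complex III and Sdhaf4 (1.00) for complex II. Sco1, a copper chaperone for complex IV, fell (-0.92). Of 19 electron carriers and their biosynthetic enzymes, 5 rose (26.3%) and 1 fell (5.26%). Among them 1 was higher at least 1.5-fold, Coq8a (1.89), a kinase-like protein of ubiquinone synthesis, and 0 were lower by that fold, also at an unadjusted p in edgeR and in DESeq2.

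In the machinery that expresses mitochondrial DNA, 5 of 30 tested genes rose (16.7%) and 10 fell (33.3%). The median was -0.19, as it was for all tested genes of at least 800 coding bases. At least 1.5-fold, 3 were higher (10%) and 5 lower (16.7%), the latter close to the 16.4% of all tested genes. The higher ones were Ssbp1 (0.74), the mitochondrial single-strand DNA-binding protein, Mterf3 (0.73) and Mterf1a (0.69), both of the transcription termination factor family. Fastkd1 (-1.16), of a family that acts on mitochondrial RNA, and the coactivators Pprc1 (-1.05) and Ppargc1b (-1.01), which promote mitochondrial gene programs, had the largest decreases. Ppargc1b was at -0.43 without Mek1/2-tKO replicate 1 and no longer passed both thresholds, nor did it without WT replicate 2 or in DESeq2. Without WT replicate 2 neither Mterf1a (0.51) nor Suclg2 (-0.57) passed both. Tfam, which packages mitochondrial DNA and starts its transcription, overlapped between the genotypes (0.042, adjusted p = 0.749 in edgeR's quasi-likelihood test; chosen after its value was seen). The 14 citric acid cycle genes had a median coding length of 1359 bases. Of tested genes of at least 800 coding bases, 38.2% fell, with a median of -0.19. Of the 14 cycle genes 2 rose and 6 fell (42.9%, beside 27.2% of all tested genes), with a median of -0.18, close to that of this length class. The 2 that rose were the isocitrate dehydrogenase subunits Idh3b (0.25) and Idh3g (0.40). Idh3a, a further subunit of the same enzyme, was lower at an unadjusted p under 0.05 in edgeR and in DESeq2. These Idh3 genes were chosen after their values were seen. At least 1.5-fold, 0 were higher, also at an unadjusted p in edgeR and in DESeq2, and 4 were lower (28.6%), with the largest decreases in Idh2 (-0.99), Ogdh (-0.72) and Suclg2 (-0.68).

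The promoters of nuclear members are known to hold sites for NRF1, ETS factors such as GABPA, YY1 and ESRRA, and the sequences of a pair that rose (Cox5b and Ndufa6) and a pair that fell (Uqcrc1 and Atp5b) are shown to let these letters be compared. Each run covers 250 bases before to 50 bases after the annotated start in RefSeq (GRCm38.p6), 5′ to 3′ on the gene's strand, and capitals mark a match to TGCGCA (NRF1), the only one of the motifs found in them.
Cox5b (chr1:36691237-36691536, plus strand): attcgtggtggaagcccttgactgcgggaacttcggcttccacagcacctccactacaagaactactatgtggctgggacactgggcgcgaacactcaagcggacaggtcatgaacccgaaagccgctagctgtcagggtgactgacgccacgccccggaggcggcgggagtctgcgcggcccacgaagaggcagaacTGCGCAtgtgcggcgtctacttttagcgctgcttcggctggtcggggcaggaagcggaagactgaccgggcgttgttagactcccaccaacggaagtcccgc
Ndufa6 (chr15:82354242-82354541, minus strand): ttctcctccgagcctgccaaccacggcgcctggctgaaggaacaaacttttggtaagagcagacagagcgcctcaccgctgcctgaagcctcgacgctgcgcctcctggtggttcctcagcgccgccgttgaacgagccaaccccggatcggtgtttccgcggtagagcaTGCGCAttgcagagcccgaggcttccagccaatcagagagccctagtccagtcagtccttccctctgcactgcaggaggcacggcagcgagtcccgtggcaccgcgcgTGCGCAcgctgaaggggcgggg
Uqcrc1 (chr9:108936398-108936697, plus strand): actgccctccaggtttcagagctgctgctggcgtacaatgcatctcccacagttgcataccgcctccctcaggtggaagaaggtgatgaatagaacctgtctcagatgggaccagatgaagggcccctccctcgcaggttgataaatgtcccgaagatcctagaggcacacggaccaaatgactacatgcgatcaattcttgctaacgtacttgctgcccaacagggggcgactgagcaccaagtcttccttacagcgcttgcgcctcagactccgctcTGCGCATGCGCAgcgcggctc
Atp5b (chr10:128083057-128083356, plus strand): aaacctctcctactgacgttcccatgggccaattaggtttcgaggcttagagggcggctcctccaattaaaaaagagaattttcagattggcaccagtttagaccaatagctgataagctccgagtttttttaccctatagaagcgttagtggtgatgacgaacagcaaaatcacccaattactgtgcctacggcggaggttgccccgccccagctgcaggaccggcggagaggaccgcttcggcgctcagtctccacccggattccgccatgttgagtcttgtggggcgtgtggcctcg
Cox5b held 1 match, Ndufa6 and Uqcrc1 held 2 each, and Atp5b held none in this window, so that matches occurred in both a riser and a gene that fell.

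Such windows were found for 69 of the 89 nuclear symbols, 74 windows in all. On either strand, TGCGCA occurred in 25.7% of them, beside 13.8% of the 12172 windows of tested genes and 7.76% of all 32851 windows. CCGGAAG (ETS) occurred in 21.6%, 18.1% and 8.86%, AAGATGG (YY1) in 14.9%, 7.09% and 6.34%, and AAGGTCA (ESRRA) in 10.8%, 3.17% and 4.72%. The end of CCGGAAG can overlap the start of AAGATGG or AAGGTCA. At least 1 of the 4 motifs was found in 52.7% of the members' windows, 35.8% of those of tested genes and 24.5% of all. Of the 52 windows of members that rose, 12 held TGCGCA, 14 CCGGAAG, 10 AAGATGG and 4 AAGGTCA, and of the 3 windows of members that fell, 2 held TGCGCA and 0 any of the others. A match says only that the letters are present.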

How the data were processed

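RNA-seq of cells labelled as Tfh-polarized CD4+ T cells was analysed in 2 WT and 2 Mek1/2-tKO libraries of day 3. The authors trimmed reads with Trimmomatic 0.36, mapped them to GRCm38 with a mapper that the methods write as STRA, counted the uniquely mapped ones on each gene with featureCounts (Subread 1.5.1) and deposited these raw counts, not normalized. The kit was stranded. Which annotation was used, and whether the counting used the strand, is not given in the sources used here. Reads shared with near-identical genes are lost by unique mapping.

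The counts (16330802 to 18931090 per library) were tested by edgeR's quasi-likelihood method (edgeR 4.0.16, R 4.3.3, robust, no replicate block) after filterByExpr and TMM scaling, and p-values were adjusted by Benjamini-Hochberg over 14330 genes. The biological coefficient of variation was 0.0918. SE is the absolute log2 fold change divided by the square root of the F statistic. CPM are TMM-scaled, and values per kilobase use exon length. Coding lengths, GC content and shared 100-base stretches were computed from GENCODE M21 transcripts. Replicates differed by more than sampling noise (chi-square per gene 4.17 in WT and 10.9 in Mek1/2-tKO). On counts simulated with the same dispersion for every gene (0.0084), edgeR recovered 98.5% of 200 genes changed 2-fold. It called 2 unchanged genes, with 14075 genes tested in all. Only well-counted genes were changed, as many up as down. In the data 2768 genes were higher and 2355 lower past both thresholds, and the replicate spread differed between the genotypes. The simulated rates therefore need not hold for the data.

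Symbols matched 54723 of 54752 identifiers. The genes given by name were the mitochondrial members, the Sdh genes, subunits with tissue forms, in each direction the 10 nuclear members with the largest log2 fold change at an adjusted p under 0.05, the nuclear member of each complex with the highest level per kilobase, Map2k1, Map2k2 and, in each other list, the 3 largest changes past both thresholds in each direction. The members, the lists and the markers were chosen with earlier results of these data known, and the groupings by coding length, by role and by shared 100-base stretches after values were seen. The results were recomputed with DESeq2 1.42.0, edgeR's likelihood-ratio test, other scalings (DESeq2 size factors, library size alone, TMM without mitochondrial genes), other filters (none, or 10 counts as the minimum of each library), the replicate number as a block, other thresholds, lowess trends (span 0.3) on exon length and GC content, and leaving out each library. The authors' in vivo RNA-seq and ATAC-seq were not analysed here.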

Additional observations from a re-analysis of the deposited data

How the results depend on the processing

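The direction of the nuclear and mitochondrial medians held in each alternative test, scaling and filter, and their size did not always. The 26 nuclear members higher at least 1.5-fold numbered 17 with scaling by library size alone and 14 to 39 with each library left out, lowest without Mek1/2-tKO replicate 1. With no fold threshold the nuclear members higher and lower numbered 57 and 5 and the mitochondrial members higher 12, since this drops a requirement. A likelihood-ratio test called 1 nuclear member lower (Cox7a1), against 0. The 5 nuclear members that fell numbered 2 to 6 with each library left out, with 2 left without WT replicate 1 and 2 without WT replicate 2, where a lone WT library is assumed to vary like the others. The mitochondrial members called lower, with and without the fold threshold, ranged from 0 to 1 (mt-Atp8, at -0.81 without Mek1/2-tKO replicate 1).

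With each library left out the nuclear median was 0.31 to 0.57 and the mitochondrial 0.38 to 0.60. The length trend taken out gave 0.18 and 0.15, and length and GC trends 0.20 and -0.030, the latter reversed. Under 10% shared stretches gave 0.40 for the mitochondrial median. The last 2 of these alternatives were added after the data were seen. The log2 ratio of the summed nuclear members, 0.21, was 0.13 by library size alone and 0.13 to 0.30 with each library left out, and that of the mitochondrial sum, 0.53, was 0.41 to 0.64. Without Mek1/2-tKO replicate 2, mt-Atp8 reversed to 0.065 and Cox6b2 to -0.26. Beyond these constructions the cause was not tested.

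The replicate numbers share only a number: deviations of libraries with the same number correlated at -0.0242 across genes. The replicate block gave 58 nuclear members higher and 5 lower by adjusted p, against 57 and 5. Over all genes, library size alone moved the higher share of the calls past both thresholds from 54.0% to 45.6%. For 58 genes given by name, 655 of 694 alternative values kept direction and call past both thresholds, 34 lost that call, 3 gained it and 2 reversed. With 2 libraries per genotype no exact test could pass, and members under about 5 CPM were measured with wide errors.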

Other observations

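A few genes outside the symbol rule belong beside the respiratory chain and were read after the results above were known. Usmg5, a small membrane subunit of ATP synthase whose symbol does not start with Atp5, was at 8.98 and 10.5 CPM in WT and 25.4 and 21.1 CPM in Mek1/2-tKO libraries (log2 fold change 1.25, SE 0.17, adjusted p = 3.09e-05 in edgeR's quasi-likelihood test). The locus Ndufb1-ps, left out because of its -ps ending, rose by 0.62, and Atpif1, the inhibitor that binds the head of ATP synthase, by 0.47 on the log2 scale. Cyc1, the cytochrome c1 of complex III, overlapped between the genotypes at 313 and 311 CPM in WT and 333 and 294 CPM in Mek1/2-tKO (0.0073, adjusted p = 0.945 in the same test).

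The mitochondrial ribosomal RNAs, counted from the same mitochondrial DNA, did not move with the mitochondrial messages. The log2 fold change was 0.032 for mt-Rnr1 (SE 0.088, adjusted p = 0.783 in edgeR's quasi-likelihood test) and -0.062 for mt-Rnr2 (SE 0.084, adjusted p = 0.555), with overlap between the genotypes in both. The library kit selects mRNA, and the effect of that selection on these RNAs was not tested.

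The annotated chromosome 1 copies of mitochondrial genes were higher in both Mek1/2-tKO libraries, with log2 fold changes of 1.13 for Gm28437, 1.08 for Gm10925, 1.06 for Gm28661, 0.95 for Gm10222, 0.90 for Gm28439, 0.79 for Gm29216 and 0.78 for Gm28438.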
